A study of Mus musculus with 8 samples.

Results

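Proteoglycans are proteins that carry long sulfated sugar chains, the glycosaminoglycans chondroitin, dermatan or heparan sulfate. They organise collagen fibrils, bind growth factors or sit on the cell surface as co-receptors. Hyaluronan is a glycosaminoglycan without a core protein, made at the plasma membrane by hyaluronan synthases and bound by CD44. In injured liver, hepatic stellate cells that have become myofibroblasts are a main source of this part of the matrix. UDP-GlcNAc, the sugar donor used by O-GlcNAc transferase (OGT), is also a building block of hyaluronan and of heparan sulfate.

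The genes described here are 35 of the 40840 genes in the tables, chosen by name. They comprise 9 small leucine-rich proteoglycans (SLRPs), 4 hyalectans, 2 basement membrane proteoglycans, 4 syndecans, 5 glypicans, 3 other proteoglycans, 3 hyaluronan synthases, 2 hyaluronidases and 3 hyaluronan-binding proteins. Their RNA was measured by sequencing in primary myofibroblastic hepatic stellate cells (pMF-HSCs). The cells were isolated from wild-type male C57BL/6J mice aged 15 to 18 weeks, sorted on retinol autofluorescence and kept on plastic for 7 days, where they activate spontaneously. Cultures then received DMSO (control, n = 4) or OSMI-1, an inhibitor of OGT, at 50 µM (OGTi, n = 4) for 24 h. The labels call the 4 replicates biological, and treated and control samples of one replicate number form a pair. OGT was inhibited with a single compound at a single dose and time, and no genetic loss of OGT is part of these 8 libraries.

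Each library held between 30068876 and 37372420 expected counts. Stellate cell genes were present, as all 11 markers listed for this cell type had a mean of at least 1 TPM (a level corrected for transcript length and depth). Of these, Pdgfrb and Lrat were lower in OGTi (18.2%, against 10.2% of all genes tested). The other 9 were not called, and the median log2 fold change of the 11 was -0.36. Summed TPM of 9 endothelial markers lay between 12.3 and 45.5 over both groups, nearly all of it from Egfl7, and that of 10 hepatocyte markers between 0.03 and 1.73. The 10 macrophage markers summed to 19.3 to 40.4 TPM in control and 33.6 to 71.6 TPM in OGTi, mostly Cd68, which was higher in OGTi, while Adgre1 stayed between 0 and 0.96 TPM. Cd68 was the 1 marker called of the 9 macrophage markers tested (11.1%, against 18.4% of all genes tested). Their median log2 fold change was -0.91, and Csf1r lay at 2.22 to 6.66 TPM over both groups (-0.03, edgeR adjusted p = 0.942). The 8 portal fibroblast markers summed to 68.0 to 185 TPM in control and 7.64 to 56.6 TPM in OGTi, without overlap. Nearly all of that was Fbln2, which was lower in OGTi (log2 fold change -1.96, edgeR adjusted p = 0.000834), and Clec3b was at 0 in all libraries. The 6 cholangiocyte markers summed to 307 to 654 TPM in control and 128 to 563 TPM in OGTi, mostly Spp1 and Krt19, with Krt19 lower (-0.66, adjusted p = 0.0462) and Sox9 higher (3.03, adjusted p = 0.00859). The Krt19 call was lost without the block (0.0731) and without pair 1, 2, 3 or 4 (0.0606, 0.144, 0.143 and 0.109), and Sox9 was at 2.26 without pair 4. The 6 mesothelial markers summed to 1.43 to 12.8 TPM in control and 1.13 to 14.6 TPM in OGTi, and the 6 smooth muscle markers to 264 to 482 and 189.9 to 380.1 TPM. At low levels, the endothelial gene Tek (0.56 to 1.59 TPM in control, 0.03 to 0.23 in OGTi) was lower and the hepatocyte gene Cyp2e1 (0.03 to 0.08 and 0.36 to 1.20 TPM) higher in OGTi. Their log2 values were -3.36 and 3.98, moving to -4.05 for Tek without pair 3 and to 4.68 for Cyp2e1 without pair 2. The part of these markers in the results on proteoglycan genes was not tested. In bulk RNA, fewer cells of a type and less RNA per cell cannot be told apart.

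Measured per length, SLRPs had the highest levels among the members in control cultures (see the plot of TPM for all members). Decorin, encoded by Dcn and known for binding collagen fibrils and TGF-β, stood first at 5743 ± 2104 TPM (SD, n = 4). It reached 5038, 3103, 7090 and 7741 TPM in control replicates 1 to 4 and 4722, 2811, 7075 and 7465 TPM in OGTi replicates 1 to 4. The groups overlapped, and in each of them replicate 2 was lowest and replicate 4 highest. Biglycan (Bgn), its closest relative, reached 848, 916, 2132 and 2278 TPM in control and 717, 873, 1584 and 2122 TPM in OGTi. Prelp, a basement membrane anchor of the same family, reached 407, 347, 1925 and 1616 TPM in control and 160, 341, 1116 and 1211 TPM in OGTi. For both genes, replicates 3 and 4 lay above replicates 1 and 2 in each group. Dcn exceeded Bgn, and Bgn exceeded Prelp, in each of the 8 libraries.

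Below these came the syndecan Sdc4 (480 ± 273 TPM), Lum (261 ± 256), Gpc4 (226 ± 89.7), Sdc2 (84.5 ± 5.90), Cd44 (72.3 ± 30.8), Hyal2 (72.1 ± 5.77), Sdc3 (43.1 ± 5.49), Ogn (42.7 ± 4.35) and Sdc1 (22.3 ± 9.42; control means ± SD, n = 4). Of the 11 steps between neighbours in this order, from Dcn to Sdc1, 7 held in every control library. The other 4 did not, namely Lum over Gpc4 (2 of 4 libraries), Sdc2 over Cd44 (3 of 4), Cd44 over Hyal2 (2 of 4) and Sdc3 over Ogn (2 of 4). In all, 12 members had a mean control level of at least 10 TPM, 13 lay from 1 to under 10 TPM and 10 lay under 1 TPM. SLRPs made up 86.0% to 90.8% of the summed TPM of the members in control and 85.2% to 93.0% in OGTi, ranges that overlapped. Dcn alone gave 60.3% ± 5.78 (SD, n = 4) of it in control and 64.5% ± 7.34 in OGTi. Taken as a whole, the 35 members held 0.518% to 1.35% of all TPM in control and 0.479% to 1.23% in OGTi.

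**Figure D1:**
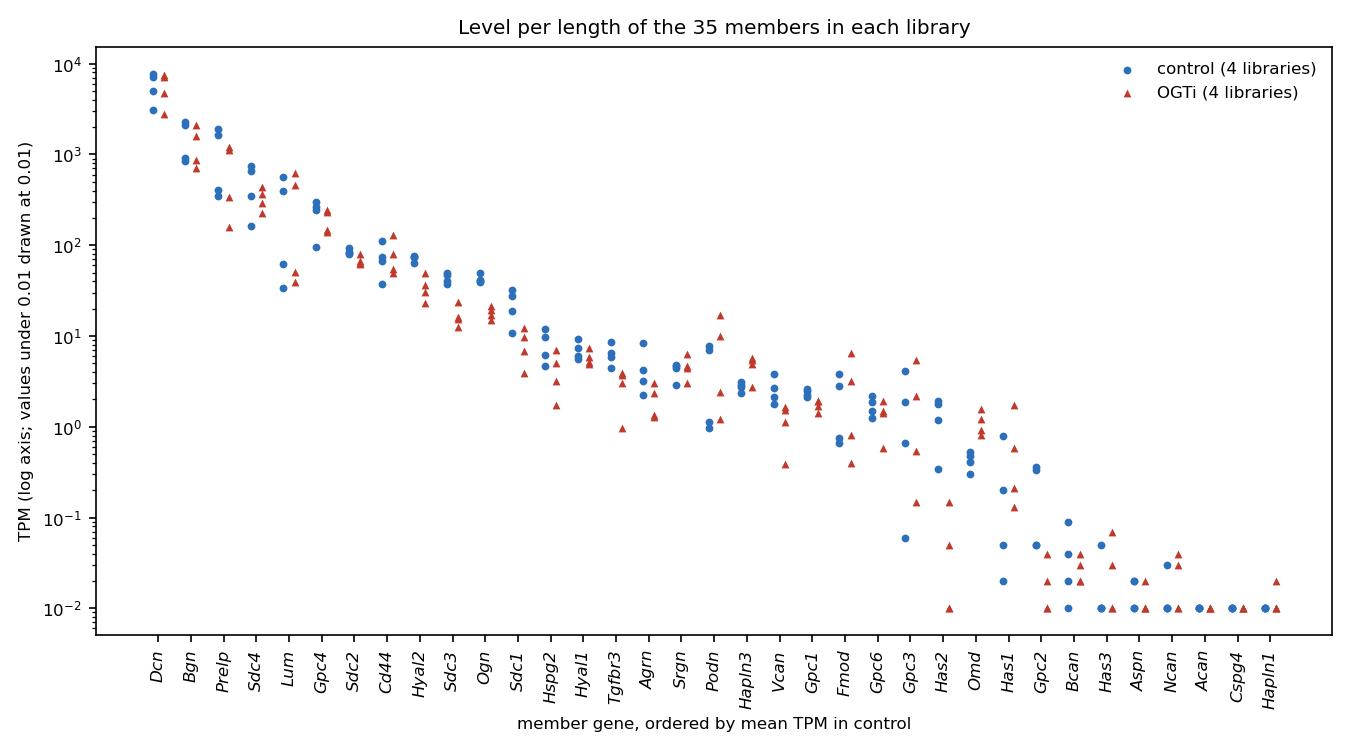
TPM of the 35 members on a log axis, with 4 control libraries as circles and 4 OGTi libraries as triangles, ordered by mean control level; values under 0.01 are drawn at 0.01. Dcn leads at 5743 TPM on average in control, and 10 members lie under 1 TPM.

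To ask which of these genes responded to OGTi, all genes with at least 10 counts over the 8 libraries were fitted with edgeR's quasi-likelihood test, with the replicate pair as a block. Genes with a Benjamini-Hochberg adjusted p of at most 0.05 over all 19963 genes tested were called changed. A log2 fold change is OGTi over control, given ± its standard error, and scaled counts are counts corrected for library size. Of the 35 members, 31 passed the filter, and 10 of these (32.3%) were called, against 18.4% of all genes tested. Called as lower in OGTi were 6 members (19.4%, against 10.2% of all genes), namely Has2, Sdc3, Sdc1, Ogn, Vcan and Hyal2. Called as higher were 4 members (12.9%, against 8.13% of all genes), namely Podn, Omd, Hapln3 and Has1. The values of control and OGTi libraries did not overlap for 7 members (22.6%, against 23.5% of all genes). No test compared the members with other genes. Both directions occurred within the SLRPs and within the hyaluronan synthases, and the median log2 fold change was 0.06 over the 31 members and 0.01 over all genes tested.

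The call counts depended on the pairing and on single pairs. Without the replicate block, 2 members were called higher and 4 lower. Leaving out pair 3 left 0 higher and 1 lower, and leaving out pair 4 left 0 higher and 2 lower. Has2 was the member whose call held under all 14 alternatives tried.

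**Figure D2:**
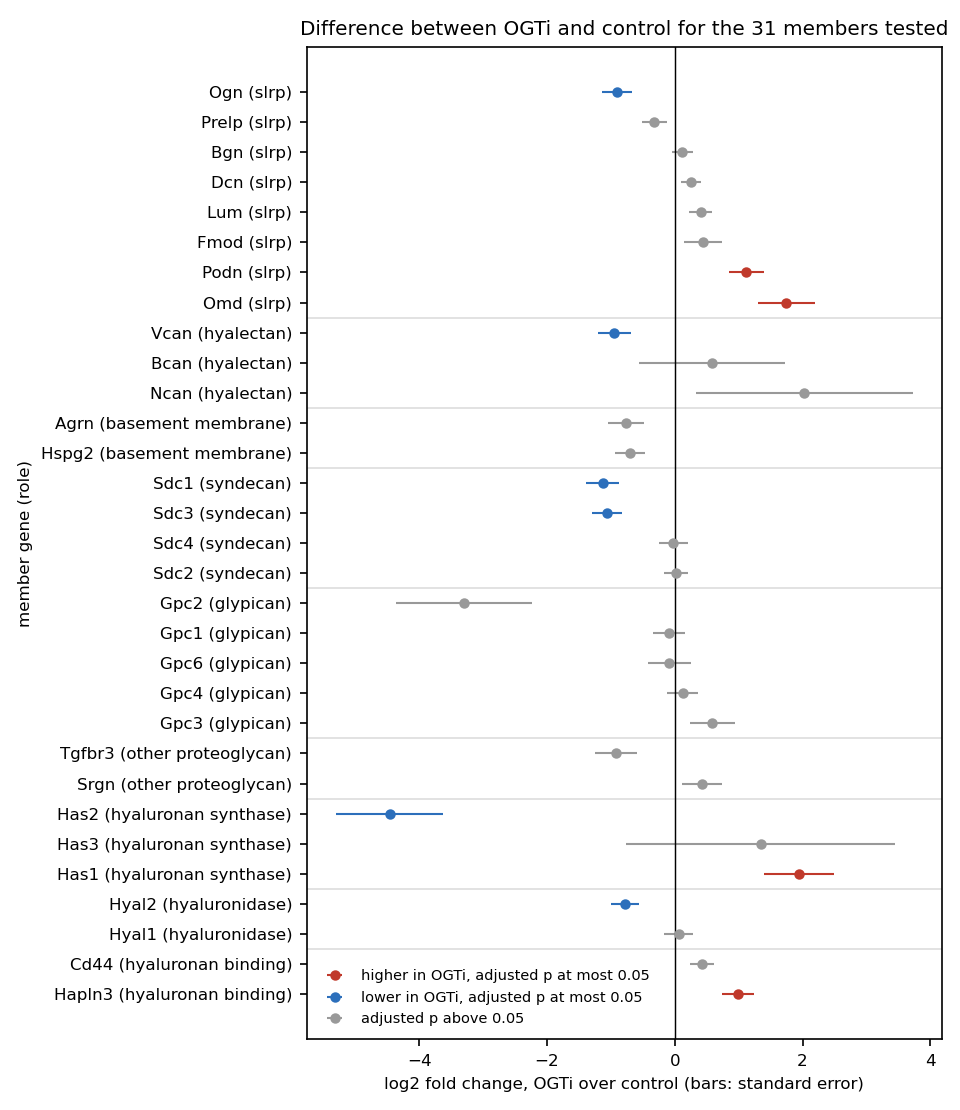
Log2 fold change of OGTi over control for the 31 members tested, grouped by role, with standard errors as bars; red marks members called higher, blue members called lower and grey those with an adjusted p above 0.05. Has2 lies lowest at -4.47 and Has1 highest among the called members at 1.94.

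The hyaluronan synthases moved apart. Has2 (chromosome 15, 56528342 to 56557999, GRCm39, GENCODE gene bounds), which makes most hyaluronan in mesenchymal cells, had 161, 28.1, 142 and 98.3 scaled counts in control replicates 1 to 4. It had 1.02, 4.47, 0 and 14.9 scaled counts in OGTi replicates 1 to 4. Every OGTi library lay below every control library. In unscaled counts these are 176, 32, 154 and 102 in control and 1, 4, 0 and 13 in OGTi, and the 0 allows up to 3 counts in that library. Has2 fell by 4.47 ± 0.84 on the log2 scale (22.1-fold lower, edgeR adjusted p = 0.00559), lower in 4 of 4 pairs. The log2 value was -3.79 without pair 1, -3.76 without pair 3 and -5.57 without pair 4. The alternatives gave adjusted p from 6.29e-09 to 0.0339. Its log2 value ranged from -5.57 to -1.07, the latter on log2(TPM + 1), where a pseudocount as large as the gene's own level compresses the change.

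Has1 (chromosome 17, 18063585 to 18075467), a second synthase, had 0.92, 1.76, 7.37 and 29.9 scaled counts in control and 7.17, 8.93, 28.7 and 80.4 in OGTi. Each OGTi library lay above its own pair's control, yet the groups overlapped because replicates 3 and 4 were higher than replicates 1 and 2 in both. Has1 rose by 1.94 ± 0.54 on the log2 scale (3.85-fold, edgeR adjusted p = 0.0325), higher in 4 of 4 pairs. The call rested on 1, 2, 8 and 31 counts in control. It was lost without the replicate block (adjusted p = 0.306), with library totals alone (0.0503) and without pair 1, 2, 3 or 4 (0.0654, 0.0630, 0.116 and 0.140). Has3, the third synthase, had 0 counts in 5 libraries and at most 9 in any, and did not pass the test (1.35 ± 2.10 on the log2 scale, adjusted p = 0.720).

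Summed over the 3 synthases, the level was 1.96, 0.44, 1.96 and 1.99 TPM in control and 0.21, 0.29, 0.59 and 1.87 TPM in OGTi. Replicate 4 differed least between the groups. Has2 held 81.6% ± 16.7 (SD, n = 4) of that sum in control and 7.51% ± 7.28 in OGTi, with no overlap between the groups (60.3% to 99.0% against 0 to 17.2%). Has1 held 15.6% ± 16.7 in control and 81.6% ± 17.5 in OGTi. These shares describe the counts given above, which were few in OGTi.

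Of the hyaluronidases, which cut hyaluronan, Hyal2 fell and Hyal1 did not pass the test. Hyal2 (chromosome 9, 107445086 to 107450171), anchored at the cell surface, had 2761, 2840, 2275 and 2691 scaled counts in control and 1641, 1944, 1662 and 1041 in OGTi. All OGTi libraries lay below all control libraries. It fell by 0.78 ± 0.23 on the log2 scale (1.72-fold lower, edgeR adjusted p = 0.0377), lower in 4 of 4 pairs. The call was lost without pair 1, 2, 3 or 4 (adjusted p = 0.0569, 0.0772, 0.0899 and 0.150) and with upper-quartile scaling (0.0733). Hyal1, the lysosomal enzyme, starts 4.0 kb downstream of Hyal2 with no coding gene between them. It ranged from 306 to 482 scaled counts in control and from 320 to 438 in OGTi, a log2 fold change of 0.06 ± 0.23 (adjusted p = 0.890).

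Among genes whose products bind hyaluronan, Hapln3 rose. Hapln3 (chromosome 7, 78764850 to 78780956) encodes a link protein that fastens hyalectans to hyaluronan. It had 169, 157, 181 and 155 scaled counts in control and 228, 367, 373 and 369.9 in OGTi. The control values were close together, and OGTi replicate 1 was the lowest of its group. Hapln3 rose by 0.99 ± 0.25 on the log2 scale (1.99-fold, edgeR adjusted p = 0.0225), higher in 4 of 4 pairs. The call was lost without pair 2, 3 or 4 (adjusted p = 0.0680, 0.107 and 0.0947), with library totals alone (0.0574) and on TPM (0.143 and 0.134).

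Cd44, the main hyaluronan receptor, had 6528, 3566, 6862 and 10632 scaled counts in control and 7538, 5113, 9640.1 and 14955 in OGTi. It was above its pair's control in 4 of 4 pairs, while the groups overlapped widely. Its log2 fold change of 0.43 ± 0.18 did not pass the threshold (edgeR adjusted p = 0.136), but did so with a trend on gene length removed (0.72, adjusted p = 0.0102) and in DESeq2 (0.48, adjusted p = 0.0481). Hapln1, another link protein, was not tested, with 2 counts in OGTi replicate 4 and 0 elsewhere.

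The SLRPs showed 3 called members of 8 tested (37.5%, against 18.4% of all genes), with Omd and Podn higher and Ogn lower. Ogn, Omd, Aspn and the related gene Ecm2 lie in one cluster on chromosome 13. Omd (49735938 to 49746298), which encodes osteomodulin, and Ogn (49761349 to 49780412), which encodes osteoglycin or mimecan, are separated by 15.1 kb on the same strand, with no coding gene between them. Omd had 17.4, 19.4, 10.1 and 14.5 scaled counts in control and 84.0, 36.9, 56.3 and 36.8 in OGTi. All OGTi libraries were above all control libraries. Omd rose by 1.74 ± 0.44 on the log2 scale (3.35-fold, edgeR adjusted p = 0.0220), from a control level of 0.43 ± 0.10 TPM (SD, n = 4).

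Ogn had 1943, 2415, 1978 and 1958 scaled counts in control and 1537, 911, 930.2 and 1144 in OGTi. Again the groups did not overlap, in the opposite direction to Omd. Ogn fell by 0.90 ± 0.24 on the log2 scale (1.87-fold lower, edgeR adjusted p = 0.0248). Ecm2, which is not among the 35 genes, fell by 1.30 ± 0.35 (adjusted p = 0.0272), and Aspn was not tested, with 1 count in each of 3 libraries and 0 in the other 5. The Omd call was lost without pair 1, 3 or 4 (adjusted p = 0.0930, 0.106 and 0.0536). That of Ogn was lost without pair 2, 3 or 4 (0.109, 0.126 and 0.0691) and with upper-quartile scaling (0.0513), and that of Ecm2 without the block (0.208) or without pair 1, 3 or 4 (0.0685, 0.0690 and 0.104).

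Sequences upstream of the start of Omd and Ogn are shown because these neighbours differed in direction, and those of Sdc3 and Has1 because, among called members with an entry, these had the lowest adjusted p of those lower and the largest fold change of those higher in OGTi. They are RefSeq promoter windows of 250 bases before the start, trimmed to the stretch that overlaps no GENCODE exon, and their positions are exact matches in GRCm39. Omd lies at chr13:49735688-49735937 and Ogn at chr13:49761241-49761348, both on the plus strand. Sdc3 lies at chr4:130519598-130519825 on the plus strand and Has1 at chr17:18075468-18075700 on the minus strand. Capitals mark the letters TATAAA on either strand, which occur in the Ogn stretch as overlapping matches on both strands.
Omd: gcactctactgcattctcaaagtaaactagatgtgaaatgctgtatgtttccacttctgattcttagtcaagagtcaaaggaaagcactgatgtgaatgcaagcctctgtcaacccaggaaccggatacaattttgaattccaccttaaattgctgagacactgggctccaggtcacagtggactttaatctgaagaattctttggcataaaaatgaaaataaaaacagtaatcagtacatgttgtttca
Ogn: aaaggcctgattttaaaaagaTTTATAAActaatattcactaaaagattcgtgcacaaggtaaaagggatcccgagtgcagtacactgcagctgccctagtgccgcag
Sdc3: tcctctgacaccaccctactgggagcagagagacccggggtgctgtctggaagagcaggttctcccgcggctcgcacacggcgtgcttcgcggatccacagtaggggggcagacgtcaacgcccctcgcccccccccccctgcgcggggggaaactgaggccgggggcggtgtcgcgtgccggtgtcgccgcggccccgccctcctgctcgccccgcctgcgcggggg
Has1: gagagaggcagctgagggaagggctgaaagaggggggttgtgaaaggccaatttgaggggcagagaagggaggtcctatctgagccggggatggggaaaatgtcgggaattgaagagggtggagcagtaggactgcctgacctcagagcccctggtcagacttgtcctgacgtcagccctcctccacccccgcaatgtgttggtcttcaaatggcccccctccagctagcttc

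Over the whole 250-base windows, G and C made up 38.4% of bases upstream of Omd, 42.0% upstream of Ogn, 58.0% upstream of Has1 and 76.4% upstream of Sdc3, with a median of 52.4% over all 32851 windows of the table. Windows were found for 27 members (30 windows). The letters GGAATG, the core bound by TEAD factors, were searched on both strands and occurred in 4 of the 30 member windows (13.3%) and in 12.6% of all windows. The 4 belonged to Ogn, Acan, Gpc4 and Hyal2. TGANTCA, the AP-1 core, occurred in 0 member windows and in 6.75% of all windows. TATAAA occurred in 5 member windows (16.7%) and in 12.4% of all windows. A match describes letters only.

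Podn (chromosome 4, 107871988 to 107889534), which encodes podocan, was the third SLRP called. It had 61.5, 56.3, 386 and 434 scaled counts in control and 202, 72.6, 717 and 1183 in OGTi. Replicates 3 and 4 of either group were above replicates 1 and 2 of either group, so that the groups overlapped, while each OGTi library exceeded its pair's control. Podn rose by 1.12 ± 0.28 on the log2 scale (2.17-fold, edgeR adjusted p = 0.0195). The call was lost without the block (adjusted p = 0.364), on TPM (0.107 and 0.0850) and without pair 1, 3 or 4 (0.0523, 0.0654 and 0.0989).

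The abundant SLRPs did not pass the test. Their log2 fold changes were 0.25 ± 0.16 for Dcn (edgeR adjusted p = 0.311) and 0.12 ± 0.16 for Bgn (0.684). Lum, encoding lumican, lies 42.8 kb from Dcn and had a value of 0.41 ± 0.18 (adjusted p = 0.151), above its pair's control in 4 of 4 pairs. Prelp, at -0.32 ± 0.19 (adjusted p = 0.291), and Fmod, encoding fibromodulin, at 0.44 ± 0.30 (adjusted p = 0.355), are neighbours on chromosome 1. On log2(TPM + 1) the sign of Dcn and Bgn turned, with values of -0.07 and -0.21.

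**Figure D3:**
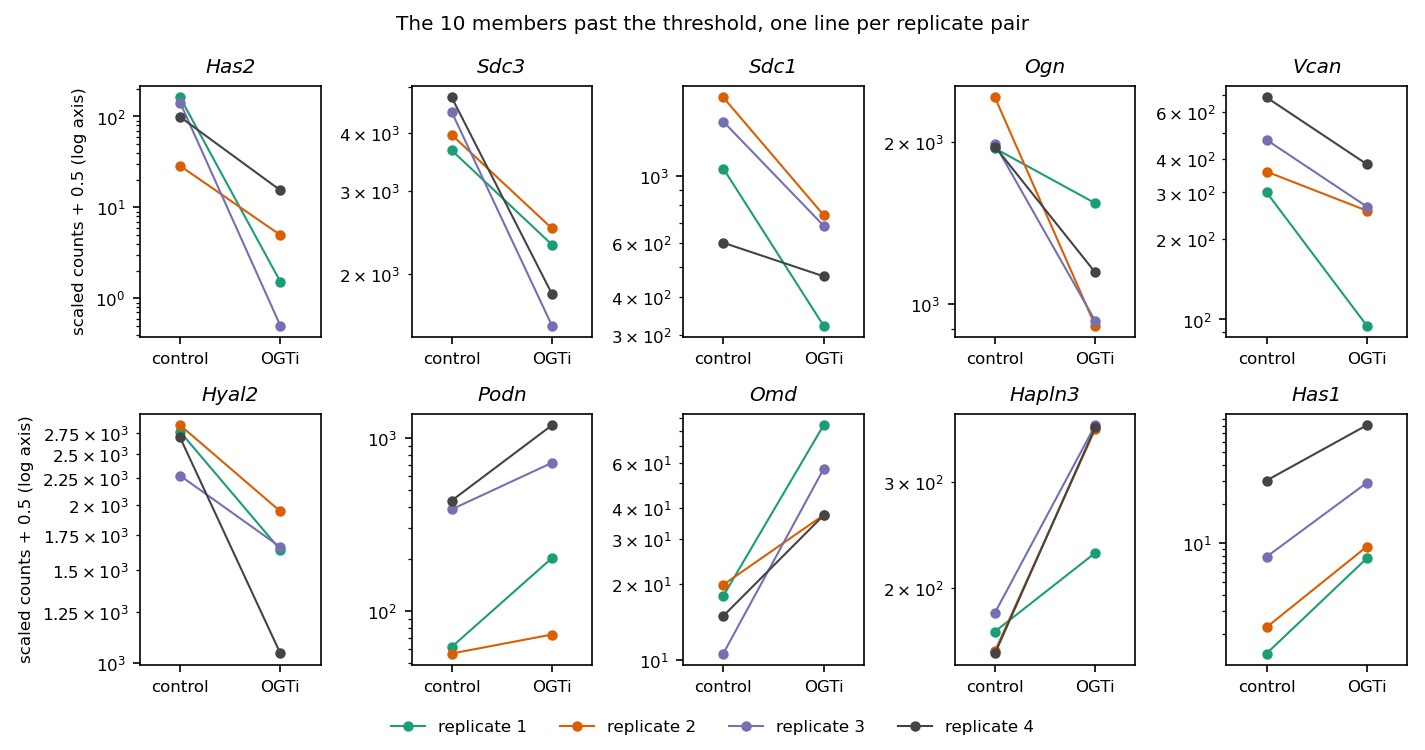
Scaled counts + 0.5 on log axes for the 10 called members in control and OGTi, 1 line per replicate pair; the vertical scale differs between panels. All 4 lines of each panel run in one direction, with the largest fold for Has2.

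Of the cell surface proteoglycans, 2 of 4 syndecans fell (50.0%, against 10.2% of all genes). Syndecans are transmembrane heparan sulfate carriers that act as co-receptors and adhesion receptors. Sdc3 (chromosome 4, 130519826 to 130556217) had 3668, 3957, 4427 and 4755 scaled counts in control and 2306, 2498, 1549 and 1810.3 in OGTi. No OGTi library reached a control library. Sdc3 fell by 1.06 ± 0.23 on the log2 scale (2.08-fold lower, edgeR adjusted p = 0.0105), lower in 4 of 4 pairs. The call was lost without pair 3 or 4 (adjusted p = 0.0746 and 0.0545) and with a trend on gene length removed in the same blocked fit (-0.77, adjusted p = 0.0599).

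Sdc1 (chromosome 12, 8820854 to 8843725) had 1055, 1807, 1505 and 601 scaled counts in control and 321, 742, 684 and 466 in OGTi. Each pair fell, but control replicate 4 lay within the OGTi range. Sdc1 fell by 1.13 ± 0.26 on the log2 scale (2.19-fold lower, edgeR adjusted p = 0.0142). The call was lost without the block (adjusted p = 0.0527) and without pair 2 or 3 (0.0637 and 0.0663). Sdc2 varied little, with 5126 to 5861 scaled counts in control and 5023 to 5882 in OGTi, a log2 fold change of 0.02 ± 0.19 (adjusted p = 0.958). Sdc4, the most abundant syndecan, ranged from 7939 to 36453 scaled counts in control and from 12063 to 25653 in OGTi, a log2 fold change of -0.03 ± 0.23 (adjusted p = 0.953). Of the summed syndecan TPM, Sdc4 held 71.7% ± 14.4 (SD, n = 4) in control and 77.0% ± 7.54 in OGTi, Sdc3 7.88% ± 3.41 and 4.21% ± 1.87, and Sdc1 4.66% ± 3.88 and 2.01% ± 1.12.

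None of the 5 glypicans, which are heparan sulfate proteoglycans held by a lipid anchor, was called, against 18.4% of all genes tested. Gpc4, the most abundant, ranged from 5949 to 18363 scaled counts in control and from 10863 to 18063 in OGTi, a log2 fold change of 0.13 ± 0.24 (edgeR adjusted p = 0.775). Its neighbour on the X chromosome, Gpc3, had 2.75, 28.1, 75.5 and 170 scaled counts in control and 9.22, 24.6, 115 and 280.2 in OGTi (0.59 ± 0.35, adjusted p = 0.291). Pairs 3 and 4 were above pairs 1 and 2 in both groups. Gpc1 (-0.09 ± 0.25, adjusted p = 0.843) and Gpc6 (-0.08 ± 0.34, adjusted p = 0.901) lay at 171 to 234 and 120 to 314 scaled counts over the 8 libraries. Gpc2 had 22, 3, 18 and 3 unscaled counts in control and 2, 0, 2 and 0 in OGTi, groups that did not overlap, and lay just outside the threshold (-3.30 ± 1.07, adjusted p = 0.0579). It passed with library totals alone, on log2(TPM + 0.1) and in DESeq2 (0.0407, 0.0360 and 0.0433).

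Vcan was the one hyalectan expressed above a few counts. Versican, its product, is a large chondroitin sulfate proteoglycan that forms aggregates with hyaluronan. Vcan (chromosome 13, 89803431 to 89890814) had 299.9, 359, 472 and 682 scaled counts in control and 94.2, 256, 265 and 383 in OGTi. Each pair fell, and the groups overlapped because pair 4 was the highest in both. Vcan fell by 0.95 ± 0.26 on the log2 scale (1.93-fold lower, edgeR adjusted p = 0.0301). The call was lost without the block (adjusted p = 0.173) and without pair 1, 3 or 4 (0.0621, 0.106 and 0.0966), and was kept with the length trend removed in the same blocked fit (-0.76, adjusted p = 0.0284). Bcan had at most 6 counts in a library and Ncan at most 6, and neither passed the test (adjusted p = 0.779 and 0.465). Acan, the cartilage aggrecan, had 0 counts in all 8 libraries and was not tested.

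The basement membrane proteoglycans lay on the same side but outside the threshold. Hspg2, which encodes perlecan, had 1295, 1720.1, 2650.1 and 3273 scaled counts in control and 698, 1517, 1111 and 2309 in OGTi, lower in 4 of 4 pairs (-0.71 ± 0.24, edgeR adjusted p = 0.0637). Agrn, which encodes agrin, had 458, 317, 586 and 1168 in control and 271, 354, 245 and 518 in OGTi, lower in 3 of 4 pairs (-0.76 ± 0.28, adjusted p = 0.0898). In both genes control replicate 4 was the highest library. Hspg2 passed under 5 of 14 alternatives, among them DESeq2 (adjusted p = 0.0363) and the fit with the length trend removed (0.0277). Agrn passed under 3, among them the fit without pair 2 (-1.03, adjusted p = 0.0311).

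Of the other proteoglycans, Tgfbr3 encodes betaglycan, the co-receptor that presents TGF-β. It had 788, 548, 695 and 1016 scaled counts in control and 173, 494, 465 and 575 in OGTi, lower in 4 of 4 pairs (-0.92 ± 0.33, edgeR adjusted p = 0.0798). OGTi replicate 1 was far below the rest of its group. Tgfbr3 passed under 3 of 14 alternatives, DESeq2 among them (adjusted p = 0.0480). Srgn, the intracellular proteoglycan serglycin, ranged from 65.5 to 108 scaled counts in control and from 73.7 to 179 in OGTi (0.42 ± 0.32, adjusted p = 0.403). Cspg4, known as NG2 and a pericyte marker, had 2 counts in OGTi replicate 4 and 0 elsewhere, and was not tested.

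For many of these genes, more of the spread lay between pairs than between treatments. The spread of log2(scaled count + 0.5) over the 8 libraries was split into the part between pairs, the part between treatments and the rest, as a description without a test. With 4 pairs but only control and OGTi as treatments, the part between pairs tends to be larger even where neither has an effect. The part between pairs was 98.5% for Lum, 98.0% for Bgn, 95.9% for Prelp, 93.9% for Fmod, 93.0% for Dcn and 85.2% for Podn. It was 2.70% for Sdc3, 6.07% for Ogn, 7.60% for Hapln3 and 15.0% for Hyal2, for which the part between treatments was 85.4%, 78.8%, 83.1% and 70.3%. SLRPs thus stood at both ends of this range. Among the 23 members with a mean of at least 100 scaled counts, the median part between pairs was 54.7%, against 38.2% over the 10717 genes of that level. The part between pairs exceeded that between treatments for 17 of these 23 members and for 5968 of the 10717 genes.

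Some members shared the order of the pairs. Lum had 2372, 1309, 14440.2 and 21021 scaled counts in control and 2798, 1623, 21975 and 29155 in OGTi, so that replicates 3 and 4 of either group were above replicates 1 and 2 of either group. The same held for Dcn, Bgn, Prelp, Fmod, Podn, Sdc4 and Gpc3, 8 of the 31 members tested, and the opposite order for 0 members. Gpc4, with 69.8% of its spread between pairs, had its lowest value in replicate 4 of both groups. Over all genes tested, 3.03% had the first order and 2.69% the opposite. This split was chosen after the values were seen. Control values of Lum differed up to 16.1-fold between cultures. Those of Gpc3 differed up to 61.6-fold, a range set by control replicate 1 with 2.75 scaled counts, and 6.03-fold without it. Of the 65 cell type markers in the tables (Des, in both the stellate and the smooth muscle list, counted once), 7 (10.8%) had the same order in TPM and 0 the opposite. They were the stellate cell markers Reln (3.71 to 8.93 TPM in replicates 1 and 2, 10.3 to 17.9 in replicates 3 and 4) and Col1a2 (8.02 to 44.1 and 69.4 to 157), the smooth muscle marker Myh11 (1.11 to 4.61 and 6.42 to 12.7) and 4 of the 10 macrophage markers, Adgre1, Ptprc, Cd5l and Vsig4, at 0 to 0.28 and 0.07 to 6.21 TPM. Cd68, the most abundant macrophage marker, lay the other way in both groups, at 32.3 and 24.7 TPM against at most 23.1 TPM in control and 69.4 and 56.1 TPM against at most 51.6 TPM in OGTi. The part of these markers in this spread was not tested.

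**Figure D4:**
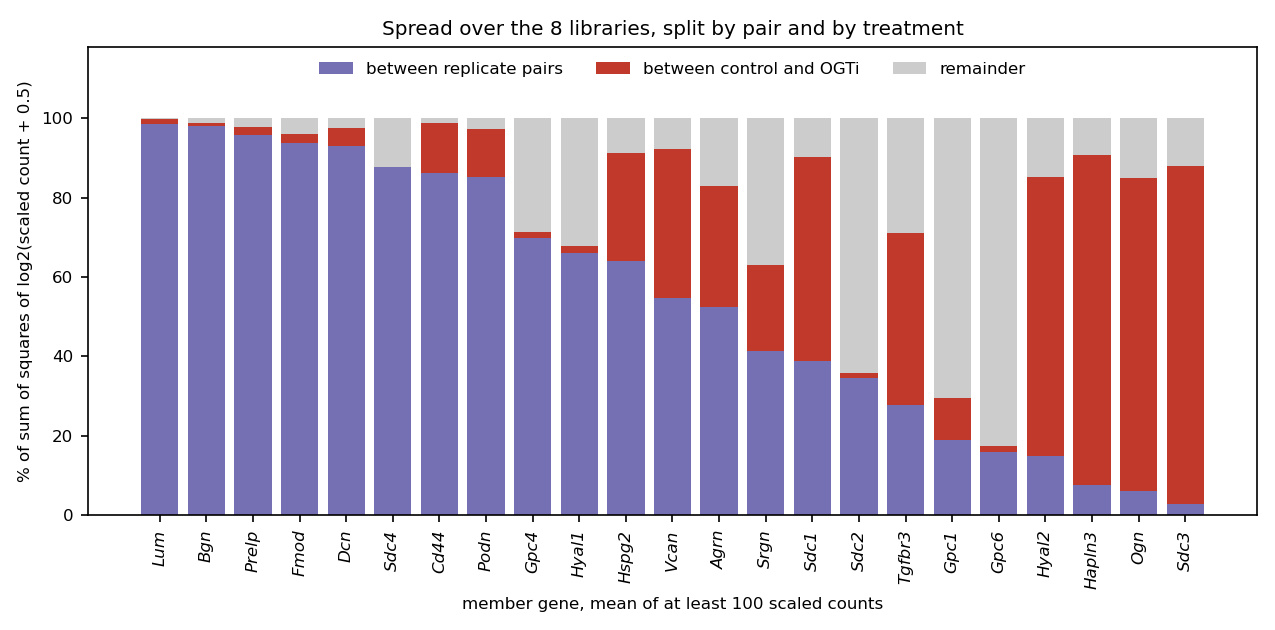
Bars split the spread of log2(scaled count + 0.5) over the 8 libraries, in percent of the sum of squares, into parts between replicate pairs, between control and OGTi, and the remainder, for the 23 members with a mean of at least 100 scaled counts. Lum, Bgn and Prelp vary nearly only between pairs (98.5%, 98.0% and 95.9%), Sdc3, Ogn and Hapln3 mainly between treatments.

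The mean transcript length that RSEM reports weights the annotated transcripts of a gene by their abundance, so a shift in it reflects reads assigned to other transcripts. Of the 18 members with several transcripts and a mean of at least 100 scaled counts, 0 had control and OGTi lengths that did not overlap, against 8.17% of the 8136 genes meeting the same conditions. Omd, under that level with a mean of 34.4 scaled counts, had 1939 to 1979 bases in control and 2020 to 2039 in OGTi, without overlap. Vcan, whose splice forms differ in the large exons that carry chondroitin sulfate, had 8424, 8391, 9109 and 8983 bases in control and 8316, 7797, 9158 and 9374 in OGTi. Replicates 3 and 4 were longer than replicates 1 and 2 in both groups. Cd44, which also has many splice forms, stayed between 4850.4 and 4917 bases. The length varied by over 5% between libraries for 5 of the 18 members, up to 20.2% for Vcan and 18.7% for Hapln3.

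Enzymes that build and break these chains, and further core proteins and hyaluronan receptors, were examined as 120 genes in 8 lists, of which 106 were tested. Of these, 21 (19.8%) were lower and 6 (5.66%) higher in OGTi, against 10.2% and 8.13% of all genes tested. No test compared these lists with other genes. In the chondroitin and dermatan sulfate list, 6 of 16 genes fell (37.5%, against 10.2% of all genes) and 0 rose (against 8.13%), with a median log2 fold change of -0.63. Chsy1, which extends the chondroitin chain, had 1280.5, 939, 1177 and 959.6 scaled counts in control and 509, 418, 406 and 395 in OGTi, and fell by 1.33 ± 0.21 (edgeR adjusted p = 0.00263). Dsel and Dse, which epimerise chondroitin to dermatan sulfate, fell by 1.36 ± 0.30 (adjusted p = 0.0111) and 1.13 ± 0.28 (0.0208). The sulfotransferases Chst11, Chst12 and Chst15 were the other 3 and were named after their values were seen. All 3 lost the call without the block (edgeR adjusted p = 0.0722, 0.0836 and 0.0705) and without pair 3 (0.145, 0.181 and 0.0925) or pair 4 (0.116, 0.125 and 0.0645), Chst11 also without pair 1 (0.0662) and Chst12 without pair 2 (0.162) or with upper-quartile or RLE scaling (0.105 and 0.0576). The Chsy1 call held under all 14 alternatives, while that of Dsel was lost without pair 3 or 4 (0.0660 and 0.0532) and that of Dse without the block (0.139) or without pair 2 or 4 (0.0526 and 0.0570).

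The linker tetrasaccharide that attaches chains to the core protein is built by 5 enzymes of the list and tuned by a kinase and a phosphatase acting on its xylose. Of the 7 genes, 2 fell (28.6%, against 10.2% of all genes) and 1 rose (14.3%, against 8.13%). The kinase Fam20b fell by 1.33 ± 0.28 on the log2 scale (edgeR adjusted p = 0.00941) and the phosphatase Pxylp1 by 1.64 ± 0.29 (0.00390), each lower in 4 of 4 pairs without overlap. B4galt7, which adds the first galactose, rose by 0.93 ± 0.19 (adjusted p = 0.00785), a call lost without pair 3 (0.0537). The xylosyltransferases Xylt1 and Xylt2 and the remaining enzymes did not pass the test (Xylt2 -0.85 ± 0.28, adjusted p = 0.0583).

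Of 15 genes for sugar and sulfate precursors, 2 fell (13.3%, against 10.2% of all genes) and 1 rose (6.67%, against 8.13%). Ugdh makes UDP-glucuronate, a building block of hyaluronan, chondroitin and heparan chains alike. It had 36579, 29854, 32230.4 and 31880 scaled counts in control and 15439, 16826, 19766 and 16003 in OGTi, and fell by 0.94 ± 0.18 on the log2 scale (edgeR adjusted p = 0.00597). Gfpt2, which starts the hexosamine pathway, fell by 1.10 ± 0.20 (adjusted p = 0.00417). Uap1, which makes UDP-GlcNAc, rose by 0.97 ± 0.27 (adjusted p = 0.0299). In these 3 genes the groups did not overlap. The calls of Ugdh and Gfpt2 held under all 14 alternatives, and that of Uap1 was lost with library totals alone (0.0519), on TPM (0.127 and 0.118) and without pair 3 or 4 (0.160 and 0.126).

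Of 19 heparan sulfate genes tested, 4 fell (21.1%, against 10.2% of all genes) and 2 rose (10.5%, against 8.13%). Sulf1, an extracellular sulfatase that trims heparan sulfate, fell by 1.76 ± 0.46 on the log2 scale (edgeR adjusted p = 0.0253). Without pair 1 its value was -1.16 (adjusted p = 0.0354), and OGTi replicate 1 was the lowest library at 178 scaled counts against 1116 to 2172 in the other OGTi libraries. The sulfotransferase Hs6st2 fell by 1.53 ± 0.32 (adjusted p = 0.00925) and the chain initiator Extl3 by 1.13 ± 0.24 (0.00925). Hs3st3a1, which places a rare sulfate, rose by 1.06 ± 0.28 (adjusted p = 0.0253). Hs3st1 (lower) and Hs3st6 (higher) were the remaining calls and were named after their values were seen. Hs3st1 lost its call without pair 3 or 4 (adjusted p = 0.0855 and 0.0694), and Hs3st6 without the block (0.0701) or without pair 1, 3 or 4 (0.107, 0.110 and 0.115), its log2 value of 3.24 moving to 2.42 without pair 1 and 4.59 without pair 2. The Extl3 call held under all 14 alternatives, that of Hs6st2 was lost without the block (0.0617), that of Sulf1 without the block (0.115) or without pair 4 (0.114), and that of Hs3st3a1 without pair 1, 2 or 4 (0.0518, 0.0692 and 0.107), with library totals alone (0.0597) and on TPM (0.134 and 0.142).

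Of the enzymes that degrade glycosaminoglycans, 1 of 13 tested fell and 1 rose, each 7.69% of the list and below the shares of all genes (10.2% lower, 8.13% higher). Gusb, the lysosomal β-glucuronidase, fell by 0.92 ± 0.23 on the log2 scale (edgeR adjusted p = 0.0196), and Hgsnat, which acetylates heparan sulfate in lysosomes, rose by 2.13 ± 0.45 (0.00903). Hgsnat ranged from 534 to 5450 scaled counts in control, with replicate 4 lowest, and from 4178 to 10049 in OGTi. The Gusb call was lost without the block (adjusted p = 0.0744) or without pair 3 or 4 (0.0837 and 0.0832), and that of Hgsnat without the block (0.0754) or without pair 1 or 4 (0.0528 and 0.0541). Without pair 2 the log2 value of Hgsnat was 2.76. Of 6 ADAMTS proteases that cleave hyalectans, 1 fell (16.7%, against 10.2% of all genes), namely Adamts5. It had 1402, 3655, 1856 and 523 scaled counts in control and 259, 683, 201 and 167 in OGTi, and fell by 2.43 ± 0.28 (adjusted p = 0.000588), a call that held under all 14 alternatives.

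Among 13 further hyaluronan genes tested, 2 fell (15.4%) and 1 rose (7.69%), against 10.2% and 8.13% of all genes. Hmmr, a hyaluronan receptor that also acts on the mitotic spindle, fell by 2.03 ± 0.27 on the log2 scale (edgeR adjusted p = 0.00114), without overlap between the groups. Tnfaip6 (TSG-6), which transfers heavy chains onto hyaluronan, rose by 0.92 ± 0.24 (adjusted p = 0.0246). It lost the call without the block (0.208), without pair 3 or 4 (0.135 and 0.105), with library totals alone (0.0598) and on TPM (0.0911 and 0.0878). The receptor Lyve1, at low counts, was the other gene that fell and was named after its values were seen. Its call was lost without the block (0.0749) and without pair 1, 2, 3 or 4 (adjusted p = 0.0759, 0.0623, 0.0763 and 0.103), with log2 values of -4.02 without pair 2 and -2.55 without pair 4 against -3.17 with all pairs. Of 17 further proteoglycan genes tested, 3 fell (17.6%, against 10.2% of all genes) and 0 rose. They were Ecm2, given above, Esm1 (endocan), which fell by 2.77 ± 0.46 (adjusted p = 0.00301), and Tsku (tsukushi), which fell by 1.77 ± 0.32 (0.00472). The calls of Hmmr, Esm1 and Tsku held under all 14 alternatives.

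**Figure D5:**
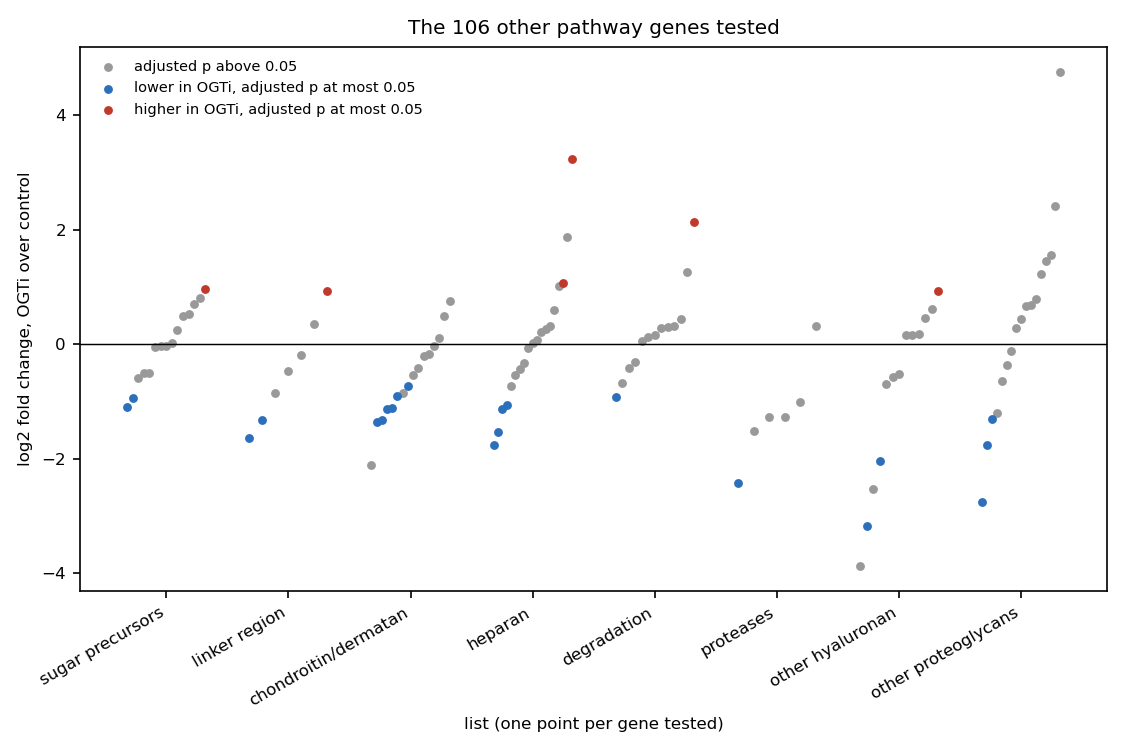
Log2 fold change of OGTi over control for the 106 other pathway genes tested, 1 point per gene, in 8 lists; blue points were called lower, red points higher and grey points had an adjusted p above 0.05. Blue points number 6 in the chondroitin and dermatan sulfate list, which holds 0 red points.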

How the data were processed

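RNA-seq libraries from 4 control and 4 OGTi pMF-HSC cultures were analysed. Per the labels, stranded libraries were made after oligo-dT enrichment. According to the submitters' processing notes, Bowtie2 2.3.5.1, RSEM 1.3.1 and DESeq2 1.36.0 were used with GRCm39 (mm39). The deposited tables hold, per gene and library, expected counts (RSEM estimates that need not be whole), TPM as the authors' RSEM run gave it, and an abundance-weighted transcript length in bases. The methods name GENCODE, whereas the tables list RefSeq transcripts. A further deposited table with the authors' own fold changes and p-values was not used.

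Expected counts were rounded, and the 19963 genes of 40840 with a total of at least 10 were fitted in edgeR 4.0.16 (R 4.3.3) by the quasi-likelihood test with TMM scaling and the replicate number as a block. P-values were Benjamini-Hochberg adjusted over all genes tested, with a threshold of 0.05. To give scaled counts, each library was brought to the mean effective (TMM) library size. Standard errors were obtained from the log2 fold change and the F statistic. The fit was also run on simulated counts with known changes. Those counts held no differences between pairs, so that run cannot check the block. Totals of 30068876 to 37372420 counts leave low genes such as Has1, Has3 and Gpc2 limited by counting, and the limit of 3 counts given for a 0 covers counting error only. Gene bounds are from GENCODE vM39, matched by symbol.

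The pairing comes from the study's methods. Deviations from group means correlated between same-numbered libraries at 0.160, 0.224, 0.105 and 0.318 (pairs 1 to 4, across genes), and between other numbers at -0.312 to 0.208.

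The members and gene lists were chosen with earlier results of these data known, so no test was made on a list. By rule, values of all libraries are given for members past the threshold and for the 3 members with the highest control TPM. Further members and Chsy1, Ugdh and Adamts5 have them too, chosen after their values were seen. Of each other list, up to 3 genes a direction are named, those of largest change among called genes with a mean of at least 50 scaled counts. Alternatives were DESeq2 1.42.0, upper-quartile, RLE or no scaling factors, other filters, no block, a trend on gene length removed, limma 3.58.1 on log2(TPM + 1) or log2(TPM + 0.1), and leaving out each pair.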

Additional observations from a re-analysis of the deposited data

Results flagged for a closer look

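In 152 groups of 4 libraries, 1 library stood far from the other 3 in 11, where chance alone gives about 7.6. Control replicate 2 was high for Ogn (2415 scaled counts, the others 1943 to 1978) and low for the summed TPM of the hyaluronan synthases (0.44, the others 1.96 to 1.99). Control replicate 4 was high for Sdc2 (5861, the others 5126 to 5235) and low for Srgn (65.5, the others 102 to 108). OGTi replicate 1 was low for Hapln3 (228, the others 367 to 373) and for Extl3 (599, the others 1324 to 1424). Control replicate 1 was high for Fam20b (1456, the others 1156 to 1201) and Uap1 (2057, the others 1677 to 1704). OGTi replicate 4 was low for the marker Krt19 (1102 scaled counts, the others 1558 to 1643). Ncan had 4.60 scaled counts in control replicate 3 and Has3 had 4.40 in control replicate 2, with 0 in the other 3 control libraries of each.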

How the results depend on the processing

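The number of members called higher, 4 in the reported fit, was 2 with library totals alone, 2 with no replicate block, 2 on log2(TPM + 1), 2 on log2(TPM + 0.1) and 0 to 2 when a pair was left out. The number called lower, 6 in the reported fit, was 10 with library totals alone and 1 to 4 when a pair was left out. DESeq2 lost none of these calls and added Cd44 as higher and Gpc2, Hspg2 and Tgfbr3 as lower. The fit with no filter on low counts added Agrn, Hspg2 and Tgfbr3 as lower. Over all genes, 3666 were called, and 1905 to 3124 when a pair was left out, with 6 libraries in each such fit. DESeq2 called 2376 genes higher and 2483 lower, against 1623 and 2043 in the reported fit. The causes were not tested. Scalings moved the median log2 fold change over all genes tested from 0.01 to 0.13 (upper quartile) and -0.19 (library totals), and the share of higher genes among those called from 44.3% to 54.2% and 30.1%. In limma on log2(TPM + 1) or log2(TPM + 0.1), where test, length correction and pseudocount also differ, the medians were -0.10 and -0.24 and the shares 25.7% and 26.3%. With the length trend removed that share was 51.8%.

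All called members kept their direction under every alternative that could be fitted. Sign changes were limited to 9 members that had not been called. On log2(TPM + 1) and log2(TPM + 0.1) the log2 fold change became -0.0728 and -0.0728 for Dcn, -0.21 and -0.21 for Bgn, -0.0169 and -0.106 for Bcan, -0.30 and -0.31 for Sdc2, -0.17 and -0.17 for Gpc4 and -0.23 and -0.26 for Hyal1. With library totals it was -0.079 for Bgn, -0.17 for Sdc2, -0.0675 for Gpc4 and -0.13 for Hyal1. With upper-quartile scaling it was 0.10 for Sdc4, 0.0341 for Gpc1 and 0.0383 for Gpc6, and with the length trend removed 0.0684, 0.20 and 0.13. Sdc4 was at 0.0211 with RLE, 0.0109 with filterByExpr and 0.0211 in DESeq2. When a pair was left out, values ran from -0.0277 to 0.0981 for Sdc2, -0.21 to 0.15 for Sdc4, -0.19 to 0.0536 for Gpc1, -0.11 to 0.36 for Gpc4, -0.29 to 0.33 for Gpc6 and -0.0568 to 0.18 for Hyal1. The members Bcan, Ncan, Gpc2, Has1 and Has3, all at low counts, could not be fitted under every alternative. Of the marker genes named as called, Krt19 lost its call without the replicate block (adjusted p = 0.0731), with upper-quartile or RLE scaling (0.110 and 0.0625) and with no filter on low counts (0.0561). The fit without the block changed no other call of a member or named gene beyond those given with each result.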
